A study of Mus musculus with 4 samples.

Results

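The 8 genes described here were listed beforehand as genes of the formative and primed states of the mouse epiblast: Fgf5, Otx2, Pou3f1, Zic2, Zic5, Sall2, Tcf15 and Sox3. They were chosen by name from the 37620 genes of the deposited count table, all 8 were found there, and 7 of them were among the 15462 genes of the deposited normalized table, which leaves out Pou3f1. The study asked whether Cripto, a cell-surface co-receptor of the growth factor Nodal, is needed when mouse embryonic stem cells (ESCs) become epiblast stem cells (EpiSCs). RNA of R1 ESCs, a line of strain 129/Sv, was sequenced in 4 libraries with 1 library per condition. The WT and Cripto KO serum/LIF libraries came from cells grown with fetal serum and the cytokine LIF, which hold ESCs in self-renewal. The WT and Cripto KO F/A libraries came from WT and Cripto KO cells that had been plated at low density in N2B27 with bFGF and Activin A (20 ng per ml) for 6 days. The labels give no dose of bFGF and do not name the Cripto KO clone of either library, nor say whether both came from the same clone. In these libraries a property of a clone and the loss of Cripto thus cannot be told apart. By qPCR the paper reports lower levels of a marker set that includes Fgf5 and Otx2 in both of its Cripto KO clones after F/A.

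In the embryo the naive epiblast of the blastocyst passes through a formative state into the primed epiblast, from which the germ layers arise. Otx2 and Pou3f1 (also called Oct6) are transcription factors of the formative and primed epiblast, and the secreted growth factor Fgf5 is a classical marker of the primed epiblast. Zic2 and Zic5 encode zinc-finger proteins, Sall2 a spalt-type zinc-finger protein and Sox3 an HMG-box factor related to Sox2, while Tcf15 is a basic helix-loop-helix factor that is switched on early in the exit from the naive state and later in paraxial mesoderm.

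Library totals ran from 15230856 to 17315442 counts on genes. Odd counts made up 0.016% of the non-zero gene counts in the Cripto KO F/A library and 53.1% to 53.6% in the other 3, so its counts were divided by 2 in every interval and its detection limit was set at 6 counts in place of 3. Tdgf1, the gene of Cripto, had 18714 counts in WT serum/LIF, 1572 in WT F/A, 945 in Cripto KO serum/LIF and 86 in Cripto KO F/A, so both KO libraries matched their label. Of the naive pluripotency genes in the normalized table, 10 of 10 were at least 2-fold lower after the F/A culture in each genotype. Of all genes, 21.0% were lower in WT and 19.4% in Cripto KO. The summed level of 11 neural markers was 278 cpm (counts scaled to a common library total of 1000000) in WT serum/LIF, 91.1 cpm in WT F/A, 216 cpm in Cripto KO serum/LIF and 117 cpm in Cripto KO F/A, most of it from Stmn2. Of these, Hes5, Neurog1 and Neurog2 were at or under the detection limit in all 4 libraries, whereas Pax6 had 121, 223, 167 and 256 counts in the same order. Pax6 shares 5542 exon bases with Elp4 on the other strand, so its reads are uncertain. Dcx rose in F/A, with 1, 19, 2 and 10 counts, and Elavl3 fell, with 57, 6, 110 and 10. Some genes from marker lists of other cell types were counted in F/A. The summed level of 10 extraembryonic endoderm markers was 315 cpm in WT F/A and 342 cpm in Cripto KO F/A. The paper names Foxa2 and Sox17 as EpiSC markers. They had 1360 and 688 counts in WT F/A, and 900 and 270 in Cripto KO F/A. Gata4, Gata6 and Pdgfra went the other way, at 831, 465 and 812 in WT F/A and 1356, 798 and 1452 in Cripto KO F/A. Sox7 fell in F/A from 45 to 20 counts in WT and from 46 to 10 in Cripto KO. Afp and Apoa1 were at or under the detection limit in all 4 libraries. The summed level of 6 trophoblast markers was 215 cpm in WT F/A and 246 cpm in Cripto KO F/A. Eomes made up 1963 of the 3272 summed counts in WT F/A and 422 of 3880 in Cripto KO F/A. Elf5 had 2 counts in WT F/A and 0 in Cripto KO F/A. Within these similar sums 2 of the 5 trophoblast markers in the normalized table were at least 2-fold higher in Cripto KO F/A. They were Cdx2 by 6.37-fold (5.02 to 7.89) and Hand1 by 8.88-fold (7.31 to 10). Eomes was 4.88-fold lower (ratio interval 0.18 to 0.24). Of all genes, 4.03% were higher and 5.39% lower. Gata3 had 238 counts in WT F/A and 252 in Cripto KO F/A, and Krt7 had 769 and 802. The summed level of 7 fibroblast markers was 109 cpm in WT serum/LIF, 70.3 cpm in WT F/A, 114 cpm in Cripto KO serum/LIF and 160.0 cpm in Cripto KO F/A. This list was split as well. Col1a1 had 459, 504, 416 and 1496 counts in the same order, and Twist2 and Postn rose in F/A in both genotypes. Thy1 fell from 466 to 18 counts in WT and from 349 to 28 in Cripto KO. Dcn fell from 328 to 5 counts in WT and from 417 to 18 in Cripto KO. Since RNA was taken from whole cultures, fewer cells of a type and less RNA per cell cannot be told apart, and the part of these other cell types in the results was not tested.

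With 1 library per condition there is no replicate error and no test. Fold changes are ratios of the deposited quantile-normalized values, a gene was called higher or lower at a fold of at least 2, and the interval beside each ratio is a 95% Clopper-Pearson interval of the raw counts scaled by library totals. These intervals cover counting error only and need not be centred on the normalized ratio.

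Fgf5 had the widest range of the 7 measured genes, and it was induced in both genotypes, to a lower level in Cripto KO. It lies on chromosome 5 of NCBIM37 (mm9) from 98683203 to 98706049 on the plus strand and was annotated with 3 exons. Raw counts were 3 in WT serum/LIF, 2206 in WT F/A, 1 in Cripto KO serum/LIF and 394 in Cripto KO F/A. Both serum/LIF libraries were thus at or under the detection limit, and both F/A libraries were far above it. The ratio of F/A to serum/LIF was 1007 in WT (interval 286 to 4057) and 519 in Cripto KO (72.2 to 16157), and these intervals overlap because so few counts stand in the serum/LIF libraries. Between the F/A libraries the counts were high enough for a narrow interval, and the level in Cripto KO was 5.83-fold lower than in WT (ratio 0.172, interval 0.149 to 0.2). No fold between the serum/LIF libraries is given.

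Otx2, a homeobox factor of the epiblast and the anterior neural plate, differed in the direction of its change between the genotypes. It lies on chromosome 14 from 49277354 to 49287319 on the minus strand, with 8 annotated transcripts. Its level was 75.5 cpm in WT serum/LIF (95% Poisson interval 71.4 to 79.7), 156 cpm in WT F/A (149.7 to 162), 62.9 cpm in Cripto KO serum/LIF (59.1 to 66.9) and 43.1 cpm in Cripto KO F/A (38.6 to 47.9). Thus WT F/A was the highest library and Cripto KO F/A the lowest. In WT the ratio of F/A to serum/LIF was 1.93 (1.93 to 2.21), a log2 change of 0.95 that was just under the 2-fold call. Other scalings put it just over this line, with log2 changes of 1.05 for total-count scaling and 1.06 for the TMM factors of edgeR. In Cripto KO the ratio was 0.654 (0.604 to 0.775), a log2 change of −0.61. Between the F/A libraries Otx2 was 3.57-fold lower in Cripto KO (ratio 0.28, 0.246 to 0.31), whereas the ratio between the serum/LIF libraries was 0.828 (0.767 to 0.905).

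Zic5 had the pattern closest to that of Otx2 among the member pairs, with a root mean squared difference of 0.30 between their centred log2 values over the 4 libraries. Zic5 was at 24.4 cpm in WT serum/LIF (22.2 to 26.9), 38.5 cpm in WT F/A (35.5 to 41.8), 23.1 cpm in Cripto KO serum/LIF (20.8 to 25.6) and 18.9 cpm in Cripto KO F/A (16 to 22.2). As with Otx2, the WT F/A library was the highest and the Cripto KO F/A library the lowest, although the intervals of the 2 Cripto KO libraries overlap. Between the cultures the log2 change was 0.60 in WT (ratio interval 1.39 to 1.79) and −0.39 in Cripto KO (0.673 to 0.992), neither past 2-fold. In F/A the Cripto KO level was 2.04-fold lower than the WT level (0.408 to 0.589), a log2 change of −1.03 that became −0.99 once the trend over transcript length was removed and came just short of 2-fold with the TMM factors.

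Zic2 and Zic5 are neighbours that point away from each other on chromosome 14, Zic5 from 122856017 to 122864899 on the minus strand and Zic2 from 122874604 to 122879074 on the plus strand, with 9704 bases between them. The change of Zic2 was larger than that of Zic5 in both genotypes. Zic2 was at 18.2 cpm in WT serum/LIF (16.2 to 20.3), 80.2 cpm in WT F/A (75.7 to 84.8), 13.2 cpm in Cripto KO serum/LIF (11.5 to 15.1) and 41.4 cpm in Cripto KO F/A (37 to 46.2). Both F/A libraries were above both serum/LIF libraries. Zic2 rose 4.23-fold in WT (3.89 to 5) and 2.87-fold in Cripto KO (2.63 to 3.74). Its ratio of Cripto KO to WT was 0.523 in F/A (0.456 to 0.584) and 0.771 in serum/LIF (0.608 to 0.867), so the level was lower in Cripto KO in both cultures by less than 2-fold.

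Promoter windows from RefSeq (GRCm38.p6, 250 bases before to 50 after a transcription start) were held for 4 of the 8 genes, Fgf5, Otx2, Sall2 and Zic5. The window of Fgf5, the member with the largest fold between the F/A libraries, and those of the upstream-most Otx2 start and of Zic5, the pair with the closest patterns, are shown 5′ to 3′ on the strand of the gene. Capitals mark a TATA box (TATAAA) or a GC box (GGGCGG, or CCGCCC where it lies on the other strand).
Fgf5, chr5:98253934-98254233, plus strand: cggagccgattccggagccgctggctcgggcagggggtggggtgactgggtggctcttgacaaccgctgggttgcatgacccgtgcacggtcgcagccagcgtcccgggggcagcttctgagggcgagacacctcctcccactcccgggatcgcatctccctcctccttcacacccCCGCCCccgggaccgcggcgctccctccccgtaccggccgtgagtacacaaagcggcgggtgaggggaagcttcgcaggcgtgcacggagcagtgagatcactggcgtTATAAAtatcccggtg
Otx2, chr14:48667595-48667894, minus strand: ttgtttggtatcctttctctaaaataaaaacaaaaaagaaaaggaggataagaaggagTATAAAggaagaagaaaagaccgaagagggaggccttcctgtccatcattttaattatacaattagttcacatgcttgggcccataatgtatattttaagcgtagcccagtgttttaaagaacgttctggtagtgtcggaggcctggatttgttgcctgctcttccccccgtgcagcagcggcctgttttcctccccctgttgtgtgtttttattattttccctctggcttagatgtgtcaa
Zic5, chr14:122465609-122465908, minus strand: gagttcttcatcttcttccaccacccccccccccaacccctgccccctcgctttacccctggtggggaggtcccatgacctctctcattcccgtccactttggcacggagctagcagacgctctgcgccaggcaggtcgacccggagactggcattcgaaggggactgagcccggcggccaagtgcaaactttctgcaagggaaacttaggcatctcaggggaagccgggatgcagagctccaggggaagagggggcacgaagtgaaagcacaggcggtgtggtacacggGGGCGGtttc
The Fgf5 window held 29 CG dinucleotides, the Zic5 window 15 and this Otx2 window 6, against a median of 7 over all 32851 promoter windows. The other Otx2 windows, not shown, held 8, 16 and 11. CCAAT was found in the one with 8 and the OTX site GGATTA in the one with 16. The TATAAA of Fgf5 began 35 bases after the annotated start and that of Otx2 192 bases before it. On either strand TATAAA was found in 13.6% of all windows, GGGCGG in 35.7%, CCAAT in 37.4%, the OTX site GGATTA in 7.06% and the octamer ATGCAAAT in 1.74%. The marked motifs do not overlap each other, and the Otx2 and Zic5 windows shown have no searched motif in common. A match is a description of the letters and not evidence of a bound factor.

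Sall2 rose in both genotypes, and its F/A levels overlapped within counting error. It lies on chromosome 14 from 52930847 to 52948437 on the minus strand. Its level was 5.02 cpm in WT serum/LIF (4.02 to 6.2) and 5.97 cpm in Cripto KO serum/LIF (4.84 to 7.28), against 50.4 cpm in WT F/A (46.9 to 54.1) and 50.7 cpm in Cripto KO F/A (45.8 to 55.9). The serum/LIF and F/A levels were well apart, while the genotypes overlapped within each culture. Sall2 rose 9.98-fold in WT (8.03 to 12.7) and 7.99-fold in Cripto KO (6.79 to 10.7). The ratio of Cripto KO to WT was 1.02 in F/A (0.889 to 1.14), and in serum/LIF its interval of 0.88 to 1.6 included 1. Once the trend over transcript length was removed, the log2 difference in F/A went from 0.03 to 0.23, outside the counting interval.

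Sox3 is a gene without introns on chromosome X, from 58144545 to 58146605 on the minus strand, and encodes a SoxB1 factor of the epiblast and neural plate. It was counted at 69 in WT serum/LIF, 112 in WT F/A, 60 in Cripto KO serum/LIF and 134 in Cripto KO F/A. Both F/A libraries were above both serum/LIF libraries. The ratio of F/A to serum/LIF was 1.85 in WT (1.36 to 2.53), under the 2-fold call, and 2.22 in Cripto KO (1.6 to 3.32), past it. As these intervals overlap widely, the genotypes were not told apart by this call. The ratio of Cripto KO to WT was 1.19 in F/A (0.842 to 1.58) and 0.988 in serum/LIF (0.644 to 1.33).

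Tcf15 was the 1 measured member that fell in F/A in both genotypes, and it fell further in WT. It lies on chromosome 2 from 151969297 to 151974833 on the plus strand. Its level was 25.1 cpm in WT serum/LIF (22.8 to 27.5), 2.43 cpm in WT F/A (1.71 to 3.35), 26.4 cpm in Cripto KO serum/LIF (23.9 to 29) and 9.53 cpm in Cripto KO F/A (7.5 to 11.9). The serum/LIF libraries were the highest and their intervals overlap, and WT F/A was the lowest. Tcf15 fell 10.7-fold in WT (ratio interval 0.0673 to 0.136) and 2.94-fold in Cripto KO (0.279 to 0.463). In F/A it was 3.92-fold higher in Cripto KO than in WT (2.61 to 5.98), and in serum/LIF the ratio was 1.08 (0.919 to 1.21). The markers of paraxial mesoderm, where Tcf15 is also active, differed in the same direction by their sum between the F/A libraries, but went the other way from Tcf15 between the cultures. The summed level of 9 such markers was 13.7 cpm in WT serum/LIF, 90.9 cpm in WT F/A, 15.1 cpm in Cripto KO serum/LIF and 200.1 cpm in Cripto KO F/A. In F/A, 2 of the 7 in the normalized table were at least 2-fold higher in Cripto KO, where 4.03% of all genes were, 1 was lower, and their median log2 difference was 0.12. Those higher were the mesoderm factors Meox1, at 42 counts in WT and 582 in Cripto KO, and Foxc2, at 169 and 984. Tbx6 was lower, at 52 and 22 counts, and Msgn1, at 44 and 46, Dll1, at 280 and 308, Foxc1 and Mesp2 were not called. Outside the normalized table Meox2 had 1 and 18 counts and Uncx 2 and 8, the latter with a ratio interval of 0.555 to 42.8. The part of such cells in the Tcf15 difference was not tested.

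Pou3f1 could not be measured from these counts. The annotation of the same build places 2 models on the plus strand of chromosome 4, a protein-coding gene from 124334896 to 124337899 (3004 exon bases) and a pseudogene model from 124334889 to 124337899 (3010 exon bases), which share 3003 bases. The counting mode leaves out read pairs that fall equally on both models, and both gene identifiers are in the count table. With these models nearly all reads of Pou3f1 would go uncounted, although the counts were made on a later release of the annotation, in which the models may differ. The protein-coding model had 4 counts in WT serum/LIF, 15 in WT F/A, 1 in Cripto KO serum/LIF and 10 in Cripto KO F/A, and the pseudogene model had 0 in all 4 libraries. The single exon base that belongs to the protein-coding model alone is 124336204, shown in capitals in the 61 bases around it because under these models a counted pair has to reach it.
Pou3f1, chr4:124336174-124336234 of NCBIM37, plus strand: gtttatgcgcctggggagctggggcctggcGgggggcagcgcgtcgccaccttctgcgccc
By total-scaled counts the ratio of F/A to serum/LIF had an interval of 1.36 to 17.6 in WT and 1.16 to 489 in Cripto KO, and the ratio of Cripto KO to WT in F/A one of 0.183 to 1.87. These values are not read as the level of the gene and are left out of the counts of members that follow. The other POU class III genes, Pou3f2, Pou3f3 and Pou3f4, had at most 5 counts in any library.

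**Figure D1:**
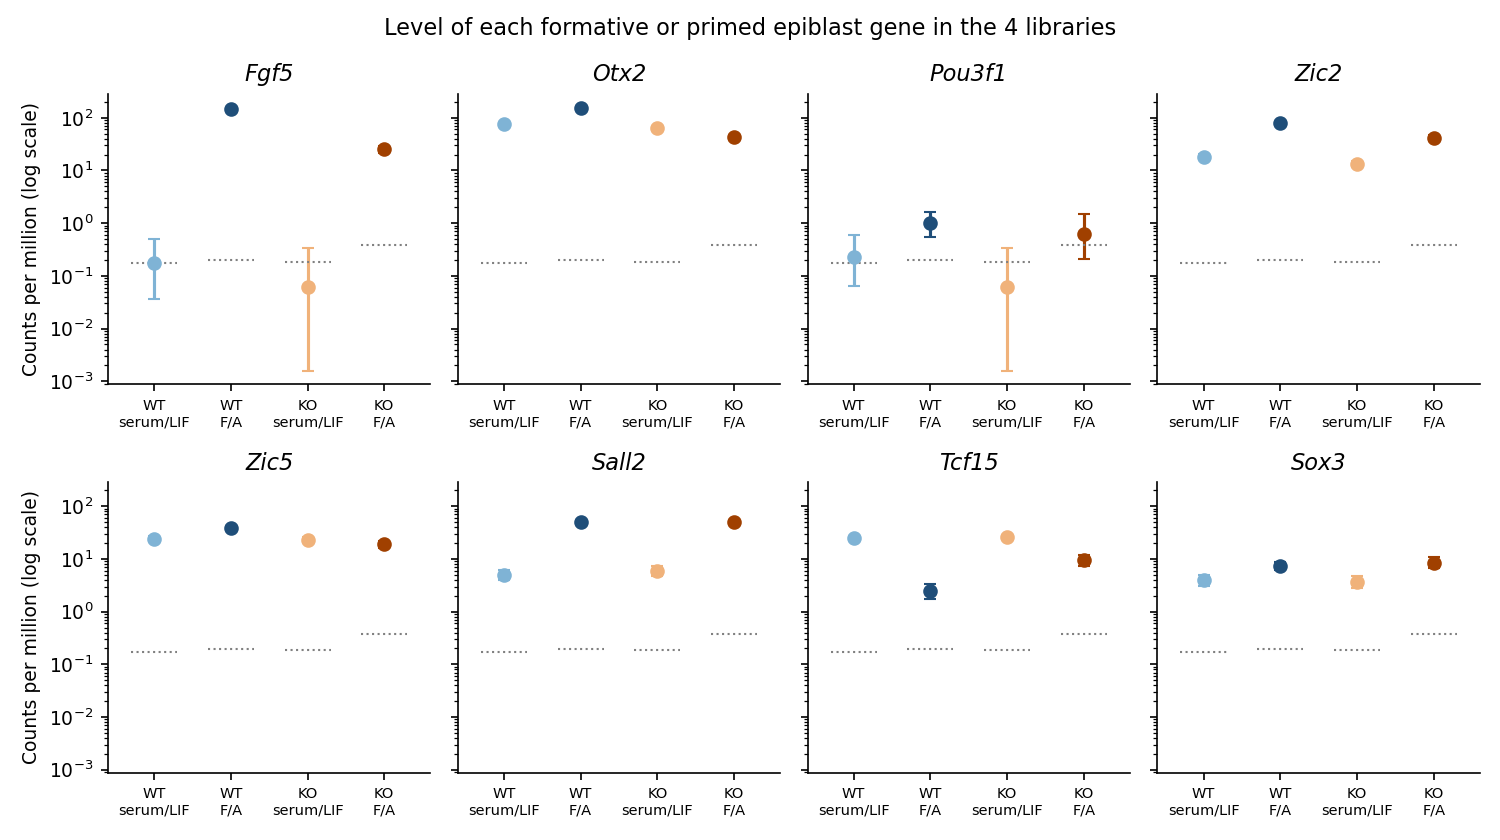
Level of each of the 8 genes in the 4 libraries, in cpm on a log axis, with 95% Poisson intervals of the counts as bars and the detection limit of each library as a dotted line. Fgf5 is at or under the limit in both serum/LIF libraries and at 145 cpm in WT F/A against 25 cpm in Cripto KO F/A, Otx2 and Zic5 are lowest in Cripto KO F/A, and Tcf15 is lowest in WT F/A.

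In the WT transition, 3 of the 7 measured members were at least 2-fold higher in F/A (Fgf5, Zic2 and Sall2) and 1 was lower (Tcf15), where 22.1% of the 15450 genes with a fold were higher and 21.0% lower. In the Cripto KO transition 4 of 7 were higher, with Sox3 in addition, and Tcf15 was again the 1 that was lower, against 19.8% and 19.4% of all genes. The median log2 change of the members was 0.95 in WT and 1.15 in Cripto KO, and that of all genes was −0.07 in both. In either direction 4 of 7 members were called in WT and 5 of 7 in Cripto KO, against 43.1% and 39.2% of all genes, and with 7 genes these counts are not read as apart from the background. The difference between the transitions, Cripto KO minus WT on the log2 scale, was −1.56 for Otx2, −0.99 for Zic5, −0.96 for Fgf5, −0.56 for Zic2, −0.32 for Sall2, 0.26 for Sox3 and 1.86 for Tcf15. The value of Fgf5 rests on the 3 and 1 counts of the serum/LIF libraries and was −2.19 with 5 added to every value, so its place in this order is not fixed. Of all genes, 3.94% lay below the difference of Otx2, 9.53% below that of Zic5 and 97.5% below that of Tcf15. With 1 library in each of the 4 conditions no interaction could be tested.

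**Figure D2:**
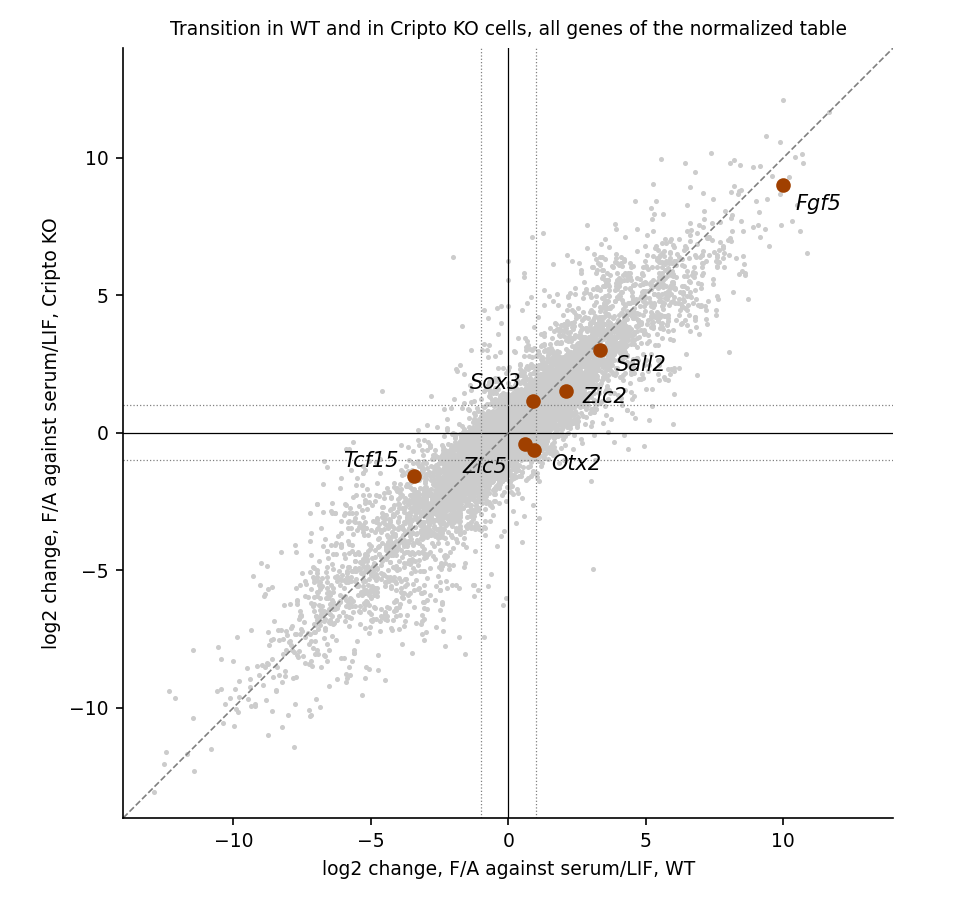
Log2 ratio of F/A to serum/LIF in WT (horizontal axis) and in Cripto KO (vertical axis) for the genes of the normalized table in grey and for 7 formative or primed genes as labelled points, with dotted lines at 2-fold and a dashed line of equal change. Otx2 and Zic5 lie in the quadrant of higher in WT and lower in Cripto KO, at 0.95 and −0.61 and at 0.60 and −0.39, Tcf15 lies above the dashed line, and Sall2 lies close to it.

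Between the F/A libraries 3 of the 7 members were at least 2-fold lower in Cripto KO (Fgf5, Otx2 and Zic5) and 1 was higher (Tcf15), where 5.39% of 15001 genes were lower, 4.03% higher and 9.43% called in either direction. The median log2 difference of the members was −0.93 against 0.00 over all genes, of which 90% lay between −1.07 and 0.95. The members were chosen with earlier results of these data known. From the same libraries the paper had reported Fgf5 and Otx2 as lower in Cripto KO F/A. These counts and this median are therefore not read as apart from the background. Between the serum/LIF libraries none of the 6 members with a fold was called in this single comparison, where 5.06% of genes were called in either direction, and the members' median was −0.03. The counting intervals of Otx2 (0.767 to 0.905) and Zic2 (0.608 to 0.867) nevertheless lay under 1 in serum/LIF, and those of Zic5, Sall2, Tcf15 and Sox3 included 1. The comparisons within F/A and the transitions use the same F/A libraries, and their values are not independent.

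**Figure D3:**
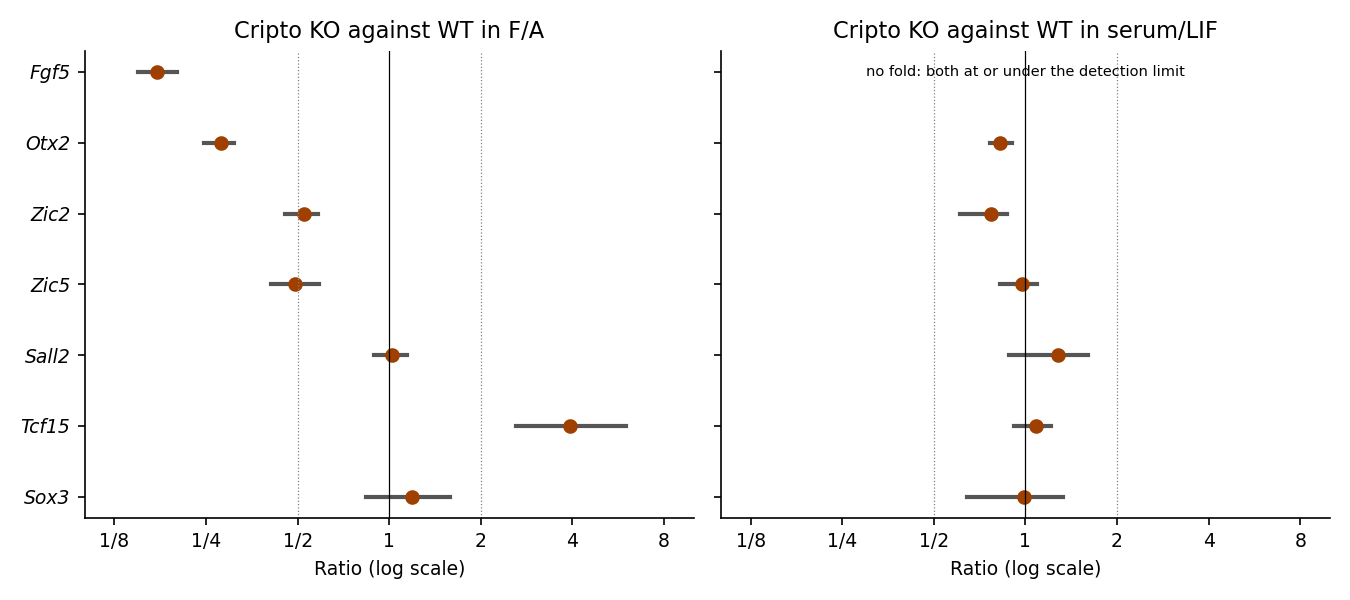
Ratio of Cripto KO to WT in F/A (left) and in serum/LIF (right) for the 7 measured genes on a log axis, with points from the normalized values, bars for the 95% counting interval of the raw counts and dotted lines at 2-fold. In F/A, Fgf5 (0.172), Otx2 (0.28) and Zic5 (0.49) lie past the lower line and Tcf15 (3.92) past the upper one, while in serum/LIF every ratio shown lies between the lines, the lowest being that of Zic2 at 0.771.

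The order of the members' levels, compared as cpm per kb of exon, changed between the cultures. In WT serum/LIF Tcf15 was the most abundant at 25.6 cpm per kb, followed by Otx2 at 22.2, Zic5 at 5, Zic2 at 4.35, Sox3 at 1.93, Sall2 at 0.925 and Fgf5 at 0.0693, and only Zic5 and Zic2 were neighbours not separated by counting error. In WT F/A the order was Fgf5 at 57.9 cpm per kb, Otx2 at 45.9, Zic2 at 19.2, Sall2 at 9.28, Zic5 at 7.88, Sox3 at 3.57 and Tcf15 at 2.48, with the last pair not separated. Thus Tcf15 went from the first place to the last and Fgf5 from the last to the first. The first places depend on the length used, as Otx2 has transcripts much shorter than its merged exons. By the median transcript length Otx2 led in all 4 libraries, at 85.3 cpm per kb in WT serum/LIF and 176 in WT F/A, followed by Tcf15 and Fgf5 respectively. Cripto KO serum/LIF held the same order as WT serum/LIF. By merged exons, Otx2 led in Cripto KO F/A at 12.7 cpm per kb, and Fgf5, Zic2, Tcf15 and Sall2 followed between 9.33 and 10 with no neighbours among them separated by counting error, ahead of Sox3 at 4.13 and Zic5 at 3.87.

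The members were also set beside the closest relatives of their own families. Fgf4, the autocrine ligand of naive ESCs, fell from 3293 counts to 15 in WT and from 2549 to 24 in Cripto KO. Fgf5 accordingly made up 0.091% of the Fgf4 and Fgf5 counts in WT serum/LIF (95% Wilson interval 0.031 to 0.267) and 99.3% in WT F/A (98.9 to 99.6). In Cripto KO F/A its share was 94.3% (90.2 to 96.7), so the exchange of ligands took place in both genotypes although the Fgf5 level differed. Sox2, a core pluripotency factor, fell by 4.17 on the log2 scale in WT and by 4.02 in Cripto KO, and the share of Sox3 in the Sox2 and Sox3 counts went from 0.546% (0.432 to 0.691) to 15.5% (13 to 18.3) in WT and from 0.471% (0.366 to 0.606) to 15.2% (12.1 to 18.8) in Cripto KO. The shares of Sox3 in the F/A libraries overlap.

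Sall2 remained a minor part of the Sall counts, at 0.605% (0.491 to 0.746) and 8.95% (8.36 to 9.57) in WT and 0.62% (0.509 to 0.756) and 11.6% (10.6 to 12.7) in Cripto KO. Sall1 and Sall4 held most of the rest. Of these Sall4 shares 526 exon bases with the lincRNA Gm14261 on the other strand, and since the strand setting of the counting is not stated, reads there cannot be assigned with certainty. Otx1 and Crx, the relatives of Otx2, had at most 15 counts, and Crx was counted in WT F/A alone, at 13. Scx, the relative of Tcf15, had at most 24.

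**Figure D4:**
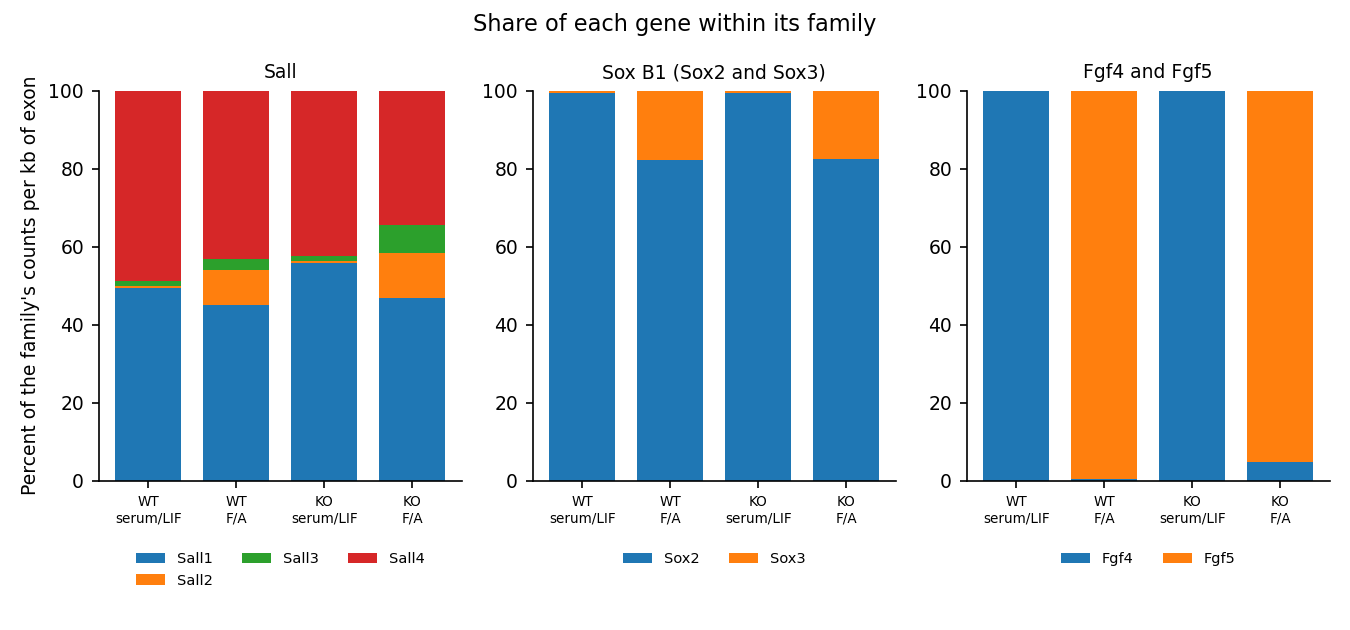
Share of each gene in the counts per kb of exon of its family, in percent, as stacked bars for the 4 libraries. On this scale Sall2 reaches 8.95% in WT F/A and 11.7% in Cripto KO F/A, Sox3 reaches 17.9% and 17.6%, and Fgf5 reaches 99.4% and 95.2%.

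A list of 14 other genes of formative or primed cells, all of them in the normalized table, was read the same way. In the WT transition 8 were at least 2-fold higher and 3 lower in F/A, with a median log2 change of 1.34. Of all genes, 22.1% were higher and 21.0% lower. In Cripto KO 7 were higher and 2 lower, with a median of 0.99, against 19.8% and 19.4% of all genes. By raw count the most abundant were the keratin Krt18, the tight-junction gene Cldn6, the chromatin factor Utf1, the HMG-box factor Sox4 and the cadherin Cdh2. Their log2 changes in WT were 6.93, 3.46, −3.27, 2.81 and 5.44, and in Cripto KO 7.54, 2.89, −4.33, 2.64 and 5.06, in the same order. Sox4 shares 2616 exon bases with the lincRNA Gm17419 on the other strand, so its reads are uncertain. Between the F/A libraries 3 were lower in Cripto KO, 1 was higher and 10 were not called, with a median of −0.15. Here 5.39% of all genes were lower and 4.03% higher. The 4 called genes, named here after their values were seen, were the FGF ligand Fgf15 (log2 difference 2.46, with 478 exon bases shared with the lincRNA Gm17685 on the other strand), Utf1 (−1.43), the forkhead factor Foxd3 (−3.67) and the kinase Pim2 (−1.78). Foxd3 had 30 counts in WT F/A and 2 in Cripto KO F/A, and its ratio interval of 0.00158 to 0.388 is wide. Pim2 was the 1 gene of the list with opposite signs in the transitions, as Otx2 and Zic5 had, with a log2 change of 1.45 in WT (ratio interval 2.6 to 3.2) and −0.94 in Cripto KO (0.476 to 0.656). Between the serum/LIF libraries Fgf15 was higher (1.47), the Wnt effector Lef1 was lower (−1.05) and 12 were not called. There 2.53% of all genes were higher and 2.53% lower.

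For each member the genes of most similar pattern were sought among 10810 or 10811 genes with at least 200 counts in their highest library, by the root mean squared difference of centred log2 values over the 4 libraries. Fgf5 had no gene within 0.5, and the nearest were Dgkk at 0.58 and the retinoic acid hydroxylase gene Cyp26a1 at 0.64. Tcf15 had 28 genes within that distance, led by Cxcl1 and Cryl1 at 0.28. Otx2 had 358, led by Snhg11 and the contactin gene Cntn2 at 0.20, Sall2 had 394, led by Pkia (0.0333) and Zbtb42 (0.0596), and Zic2 had 837, led by 2610018G03Rik (0.0261) and Ablim1 (0.0399). The flatter patterns of Sox3 and Zic5 were common, with 3494 genes near Sox3, led by 2410003K15Rik (0.0198) and Sri (0.0229), and 4360 near Zic5, led by Ccdc39 (0.0297) and the cadherin Cdh4 (0.0571). Among the members themselves Fgf5 and Tcf15 were the farthest apart, at 6.23, and Zic2 and Zic5 were 0.86 apart.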

How the data were processed

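RNA of 4 cultures was sequenced, 1 library per condition. Per the labels and the paper's methods, mm9 (NCBIM37) served as the genome, TopHat2 2.0.13 as the aligner and HTSeq 0.6.1p1, in the mode intersection-nonempty, as the counter, and the authors deposited the raw counts. The strand setting is not given in the sources used here. The authors also deposited a signal made from these counts, full quantile-normalized values of genes that passed a filter on low counts. The members and lists were chosen with earlier results of these data known.

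Log2 changes were taken between normalized values with 0 replaced by 0.5. The call required a 2-fold difference and at least 1 of the libraries above its detection limit (3 counts, or 6 in Cripto KO F/A). The condition on the limit was added to the call once the data were seen. The simulated replicates of the authors' own calling step were not used, and no p-value was computed. Intervals are 95% Clopper-Pearson intervals for ratios, Poisson for cpm and Wilson for shares. Library totals ran from 15230856 to 17315442 counts, and the total of Cripto KO F/A was halved to 7870293 for counting error, so that at equal counts this library is the least precise. Coordinates came from a GENCODE annotation of NCBIM37 that is older than the one used for counting, and named 37205 (98.9%) of the genes. Promoters came from RefSeq on GRCm38.p6, and no coordinate was converted between builds.

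All members, their family relatives, Tdgf1 and the 2 genes of most similar pattern per member were named by rule, along with the most abundant genes of the list of other formative or primed genes. Marker lists served to check the labels. Sox1, Tfcp2l1 and Tfap2c were not analysed here, and some of the named relatives and markers are not reported here. Alternatives used edgeR 4.0.16 and DESeq2 1.42.0 (R 4.3.3) for scaling factors only, total-count scaling, 5 added to every value, halved Cripto KO F/A counts, removal of a length trend, no filter, and folds of 1.5 and 3. Levels per kb of median transcript, and these alternatives for the difference of the transitions, were added after seeing the data. Scripts ran in Python 3.11.15 with numpy 2.4.6, pandas 2.3.3 and scipy 1.17.1 and were tested on simulated data.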

Additional observations from a re-analysis of the deposited data

Results flagged for a closer look

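Otx2 and Zic5 changed in opposite directions in the 2 genotypes, and this difference between the genotypes was not tested because each condition has 1 library. The log2 change of Otx2 from serum/LIF to F/A was 0.95 in WT and −0.61 in Cripto KO. The log2 change of Zic5 was 0.60 in WT and −0.39 in Cripto KO. The 95% counting intervals of all 4 ratios exclude 1, but none of the 4 changes reached 2-fold on the deposited scale.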

How the results depend on the processing

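Of 189 single-gene values computed under the alternatives, 184 stayed within their counting interval or did not move, 0 changed sign, and 7 crossed the 2-fold line. These were Otx2 in the WT transition (0.95 as deposited, 1.05 with total counts, 1.06 with TMM, 1.05 with DESeq2 size factors and 1.26 without the length trend), Sox3 in WT (0.88, and 1.07 without the length trend) and Zic5 between the F/A libraries (−1.03, −0.99 without it, and just short of 2-fold with TMM). The widest move was that of Fgf5 in the Cripto KO transition, from 9.02 to 6.10 with 5 added to every value, which damps genes near 0. Without the length trend Sall2 left its counting interval in the WT transition (3.32 to 2.92) and between the F/A libraries (0.03 to 0.23). Otx2 did so in the WT transition and between the F/A libraries (−1.84 to −2.03). Of 72 member counts 66 stayed within 1.5 times. Members higher in the WT transition numbered 3 as called, 5 without the length trend and 6 at a fold of 1.5. Members lower in Cripto KO F/A than in WT F/A numbered 3 as called and 2 with TMM or without the length trend. In the Cripto KO transition 4 were higher as called and 2 at a fold of 3, and 1 was lower as called, 2 at a fold of 1.5 and 0 at a fold of 3. Without the filter on low counts 1 member, Pou3f1, was lower in Cripto KO serum/LIF than in WT, on 1 and 4 counts. No paired analysis was possible because each group holds 1 library, and for the same reason no library could be left out. The spread between cultures is unknown for every value. Depth limits the folds of Fgf5, which has few counts in serum/LIF. Pou3f1 has few counts in every library, and with its overlapping models nearly all of its reads would go uncounted.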
